A study of Saccharomyces cerevisiae with 24 samples.

Results

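The Mut2 strain of budding yeast was compared with the wild type (WT) after 20 min in 0.4 M NaCl, by RNA-seq of 2 libraries from each, 4 of the 24 libraries of the study. Those 4 libraries were chosen by the strain and time in their column names. Library 0 of each strain was paired with library 0 of the other and library 1 with library 1, 0 and 1 being the numbers that end the column names. The whole study holds 12 groups of 2 libraries, a wild type and the mutants Mut1, Mut2 and Mut3 at 0, 10 and 20 min in the same salt. Mut2 carries Ypd1 M20D and M92K together with Sln1 E1101K, E1110K and S1179D. Mut1 has the same changes without M92K. Mut3 pairs Ypd1 I13D with the 3 Sln1 changes of Mut2 and, in addition, L1109K. Every strain, the wild type included, descends from a W303-1a parent in which sho1 is replaced by HIS3 and a qVenus reporter under the STL1 promoter sits at leu2 with the LEU2 marker. YPD1 was put back in a cassette with TRP1 and HPH, and SLN1 in one with URA3 and KanMX. Cells were in mid-log phase in synthetic complete medium when salt was added. The labels do not say that the libraries of a group came from separate cultures, so every p below measures only the spread between these libraries, which may be technical.

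Sln1 is the membrane histidine kinase that senses osmolarity in yeast. It passes phosphate through Ypd1 to the response regulators Ssk1 and Skn7. When hyperosmotic stress shuts Sln1 off, unphosphorylated Ssk1 starts the MAP kinase cascade that ends in Hog1. While Sln1 is active, phosphorylated Skn7 drives genes such as the mannosyltransferase gene OCH1. Sho1, which these strains lack, feeds the other branch of the same pathway. Hog1 raises glycerol synthesis and uptake and a wide set of stress genes, and growth genes such as those for ribosome assembly fall for a time after osmotic shock.

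The values are FPKM, fragment counts scaled for transcript length and library total, so a level is already given per length. Levels of one gene are quoted with library 0 before library 1. Differences are log2 values of FPKM plus 1, Mut2 minus WT, with the SE of a limma fit over all 24 libraries, and folds are taken from them, so that folds of genes with low FPKM are understated. A gene was called at a Benjamini-Hochberg adjusted p under 0.05 over 6359 tested features, those whose mean FPKM reached 1. The fit holds the library number as a block. For the comparison at 20 min, counts of list members are also given without the block, and values without 1 of the 4 libraries where a named call is lost or a list's larger count moves by over 1.5 times.

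Library 0 of Mut2 at 20 min stood apart from the other libraries of the study. RNA genes (rRNA, tRNA, snRNA, snoRNA and others) summed to 75006 FPKM in it and to between 4171 and 14845 in the other 23. The snRNA and snoRNA genes made up 69612 of that sum, against 3674 to 14567 elsewhere. The rRNA genes summed to 217.3 FPKM against 1.1 to 13.0, with 2 of them above 0 in each library. In Mut2 library 0 these were the mitochondrial 15S and 21S rRNA genes, at 98.9 and 118.4 FPKM. The tRNA genes summed to 2804 FPKM against 0 to 685.4. The snoRNA gene snR128 stood at 289.7 and 591.2 FPKM in the wild type and at 7931 and 122.8 in Mut2, so that library 0 alone was high. The sum over all features was not out of range in this library, at 2071851 FPKM against 1850836 to 2995688. Of 105 RNA genes tested, 8 were called higher in Mut2 and 2 lower, against 18.9% and 16.5% of all tested features. Some of the 8 were far above the wild type in library 0 only. The snoRNA gene snR3 stood at 12.9 and 7.16 FPKM in the wild type and at 1072 and 11.9 in Mut2. The 15S and 21S rRNA genes stood at 0.691 and 0.936 FPKM in Mut2 library 1. Others, such as snR44, were higher in both libraries (61.8 and 40.0 FPKM against 410.1 and 136.0). Counts of called list members at 20 min are therefore also given without Mut2 library 0. Its part in the results that keep their call without it was not tested further.

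**Figure D1:**
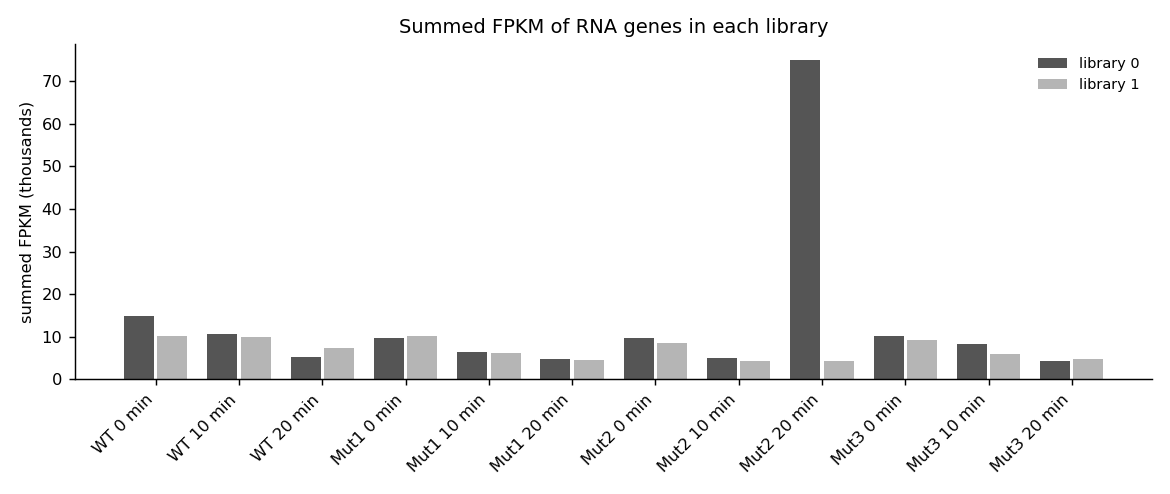
Summed FPKM of RNA genes in each of the 24 libraries, as bars, grouped by strain and minutes in salt. Library 0 of Mut2 at 20 min reaches 75006 FPKM, and the other 23 libraries lie between 4171 and 14845.

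At 20 min in salt, 2247 of the 6359 features were called, 35.3% of those tested, with 1200 higher in Mut2 (18.9%) and 1047 lower (16.5%). Differences of at least 2-fold were called for 317 features (4.99%), of which 149 were higher (2.34%) and 168 lower (2.64%). All 2247 had the same sign in both pairs of libraries. Being called in a fit that pairs the libraries largely fixes this, and likewise the sign without 1 library, so neither is separate support. Over all tested features, 40.2% were above 0 in both pairs and 35.8% below 0 in both. In 1720 of the 2247 the libraries of the strains did not overlap, as they did not in 2696 of all 6359. Leaving out Mut2 library 0 gave 729 higher and 848 lower, and none of the 2247 changed sign. Leaving out WT library 1 gave the fewest calls, 1469 (695 higher and 774 lower), and leaving out WT library 0 gave 927 higher and 644 lower. Without the block 535 features were called (8.41%), 294 higher (4.62%) and 241 lower (3.79%), and all of them were among the 2247. A fit of the 4 libraries alone called 0, with 2112 features at an unadjusted p under 0.05. The median difference over all tested features was 0.02. Counts of list members at 20 min below are to be read beside the 18.9% and 16.5% of all tested features, and counts without the block beside 4.62% and 3.79%.

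**Figure D2:**
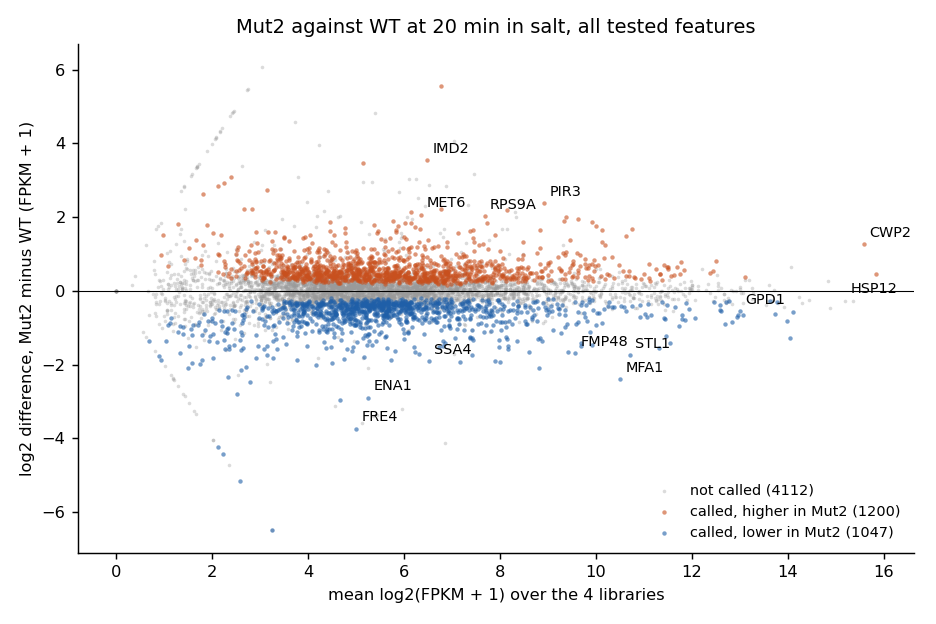
Each point is 1 of the 6359 tested features, with the mean log2(FPKM + 1) over the 4 libraries on the x axis and the log2 difference, Mut2 minus WT, on the y axis. The 1200 features called higher and the 1047 called lower are coloured, with IMD2 at 3.54, CWP2 at 1.27 and FRE4 at -3.74 among the labelled genes.

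Neither edited gene was called. SLN1 is YIL147C, on chromosome IX from 69791 to 73453 in build R64, which all coordinates below use. It stood at 16.8 and 17.4 FPKM in the wild type and at 16.0 and 17.3 in Mut2 (adjusted p = 0.745). YPD1 (YDL235C, chromosome IV, 33415 to 33918) stood at 48.8 and 32.7 FPKM in the wild type and at 64.8 and 35.3 in Mut2, with groups that overlap (adjusted p = 0.328). FPKM of a whole gene does not show which codons it carries, so these levels do not check the labelled substitutions. SHO1 was listed at 0 in all 4 libraries, as the sho1::HIS3 genotype of every strain implies. Of the markers, TRP1 stood at 108.7 and 129.5 FPKM in the wild type and at 151.6 and 168.9 in Mut2, a difference of 0.43 ± 0.08 (adjusted p = 0.000795, and 0.143 without the block). URA3 was not called (adjusted p = 0.76). HIS3 was lower by 0.38 on the log2 scale (adjusted p = 0.0204), a call lost without Mut2 library 0 (adjusted p = 0.106), WT library 0 (0.138) or the block (0.753).

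The codons that Mut2 changes are shown with 12 reference bases on each side, to place the edits in their genes. All lie on the minus strand of the RefSeq R64 genome, the letters read 5′ to 3′ along the coding strand, and capitals mark the wild-type codon that is replaced.
YPD1 codon of M20D, chrIV:33847-33873: gaaattatatctATGgatgacgatgat
YPD1 codon of M92K, chrIV:33631-33657: ttgggaagaaaaATGgaacatttcttc
SLN1 codon of E1101K, chrIX:70139-70165: catgtaaatcagGAAgttatcaaaaga
SLN1 codon of E1110K, chrIX:70112-70138: atgttgaacttgGAGggcattgaaaat
SLN1 codon of S1179D, chrIX:69905-69931: tttgctgacgatAGCaacattaaagaa
M20D and M92K both replace a methionine codon of YPD1, and the edits at E1101 and E1110 lie close together in SLN1. Nothing about the new codons is read from these data.

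The genes that Hog1 raises in salt were mostly lower in Mut2 at 20 min. Of 28 Hog1-dependent targets, 15 were called lower and 2 higher (13 and 2 without Mut2 library 0, 9 and 1 without the block), with a median difference of -0.43. STL1, the gene of a plasma membrane transporter that brings glycerol in together with protons (YDR536W, chromosome IV, 1508005 to 1509714), stood at 3095 and 3009 FPKM in the wild type and at 1014 and 815.3 in Mut2. Its difference was -1.75 ± 0.08, or 3.35-fold lower (adjusted p = 3.26e-09), and the groups did not overlap. FMP48, a gene for a putative protein kinase, stood at 1362 and 1370 FPKM in the wild type and at 449.6 and 396.2 in Mut2, 3.23-fold lower (adjusted p = 1.07e-07). PUT4, the proline permease gene, was 2.86-fold lower (adjusted p = 1.87e-05, and 0.298 without the block), from 312.6 and 577.6 FPKM to 90.8 and 241.2. The 2 members called higher, named after their values were seen, were GCY1, a glycerol dehydrogenase gene at 111.6 and 99.9 FPKM in the wild type and 218.9 and 203.0 in Mut2, and the dihydroxyacetone kinase gene DAK1, with a difference of 0.41 (adjusted p = 0.00158, and 0.113 without the block).

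ENA1 (YDR040C, chromosome IV, 535192 to 538467), the gene of the plasma membrane sodium pump, showed the largest difference of the Hog1 list. It stood at 99.3 and 105.8 FPKM in the wild type and at 10.7 and 15.6 in Mut2. The difference was -2.89 ± 0.12, or 7.44-fold lower (adjusted p = 2.78e-09). These values are uncertain, since reads could be split among ENA1 and the almost identical ENA2 and ENA5.

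The main genes of glycerol synthesis under osmotic stress were also lower. GPD1 (YDL022W, chromosome IV, 411825 to 413000), the glycerol 3-phosphate dehydrogenase gene of the osmotic response, stood at 10232 and 9671 FPKM in the wild type and at 6847 and 6789 in Mut2, 1.46-fold lower (adjusted p = 0.00224). The glycerol 3-phosphatase genes GPP1 and GPP2 were 1.57-fold (adjusted p = 2.16e-05) and 1.85-fold lower (adjusted p = 2.03e-06). GPP2 stood at 8672 and 9342 FPKM in the wild type and at 4472 and 5301 in Mut2. In each of these genes both Mut2 libraries lay below both wild-type libraries. Of the 16 genes of glycerol synthesis, transport and breakdown, 5 were called lower and 4 higher, with a median of -0.02 (6 lower and 5 higher without Mut2 library 0, 5 and 1 without the block). Without WT library 1, 2 were called higher.

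Of 4 other stress genes of the panel, GRE2 and CTT1 were lower and HSP12 and ALD3 were not called. GRE2, a methylglyoxal reductase gene, stood at 5096 and 6066 FPKM in the wild type and at 3168 and 3491 in Mut2, a difference of -0.74 ± 0.11 (adjusted p = 0.000189, and 0.0879 without the block). The cytosolic catalase gene CTT1 stood at 4337 and 4967 FPKM in the wild type and at 2311 and 3191 in Mut2, 1.71-fold lower (adjusted p = 0.000347). HSP12, the gene of a membrane-binding stress protein, was among the highest of all genes at 52742 and 31843 FPKM in the wild type and 40983 and 28435 in Mut2. Its groups overlapped, and it was not called (adjusted p = 0.156). The aldehyde dehydrogenase gene ALD3 was not called either (adjusted p = 0.187).

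The stress response element AGGGG, or CCCCT on the other strand, bound by Msn2 and Msn4, was found in the 300 bases before the start codon of 18 of the 28 Hog1 targets (64.3%), against 22.2% of all 6001 such windows. Among genes called at least 2-fold lower it was found in 28.6%, and among those called at least 2-fold higher in 23.1%. Of the 12 largest differences downward, 1 had it (8.33%). One match before STL1 and one before the Hsp70 gene SSA4, both called at over 3-fold lower, are shown with 12 bases on each side from RefSeq R64, plus strand, the match in capitals.
STL1, chrIV:1507818-1507846: cttcaattttgtCCCCTtcaacgctgctt
SSA4, chrV:364398-364426: attcaataagcaAGGGGggaagctcctta
ENA1, FRE4 and FMP48 had no match to these letters in that window.

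**Figure D3:**
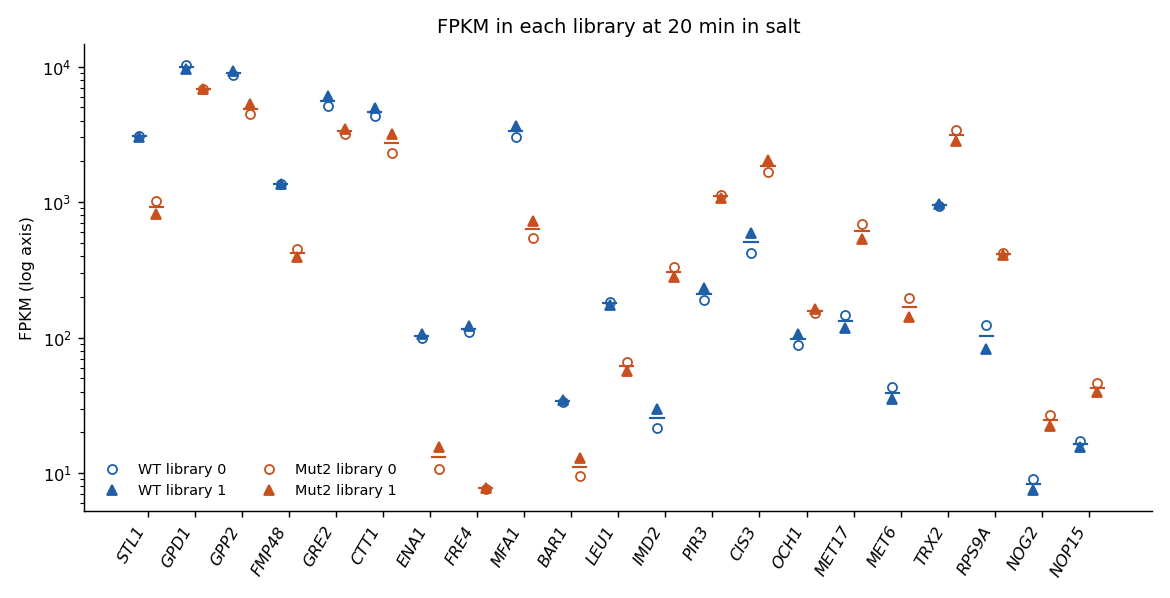
FPKM of 21 genes in each of the 4 libraries on a log axis, WT in blue and Mut2 in orange, library 0 as open circles, library 1 as triangles and the mean of each strain as a bar. STL1 lies at 3095 and 3009 in the wild type and at 1014 and 815.3 in Mut2, and in every gene shown the libraries of the strains do not overlap.

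The genes of the signalling pathway differed less. HOG1 (260.8 and 301.3 FPKM in the wild type, 234.8 and 311.1 in Mut2) and PBS2, the MAP kinase kinase gene, were not called (adjusted p = 0.7 and 0.096). SSK1, the response regulator gene, stood at 57.7 and 60.7 FPKM in the wild type and at 36.2 and 41.9 in Mut2, a difference of -0.59 ± 0.11 (adjusted p = 0.000776, and 0.117 without the block). SSK22, which encodes a MAP kinase kinase kinase that Ssk1 activates, was 1.64-fold lower (adjusted p = 0.000905), from 7.6 and 6.72 FPKM to 4.54 and 3.45. MSB2, a mucin gene of the Sho1 branch, was 1.67-fold higher (adjusted p = 0.000296, and 0.522 without the block), with overlapping groups. Of 18 genes of the cascade that were tested, 5 were called lower and 2 higher (2 and 1 without Mut2 library 0, 1 and 0 without the block), and leaving out any other of the 4 libraries left 2 or 3 called lower. SKN7 was among the 5, with a difference of -0.39, and lost its call without Mut2 library 0 (adjusted p = 0.0615), Mut2 library 1 (0.145), WT library 0 (0.197) or the block (0.723).

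Among 12 genes for regulators and kinases that act under Hog1, 5 were called lower and 1 higher (5 and 0 without Mut2 library 0, 2 and 0 without the block). Without WT library 1, 3 were called lower. The transcription factor gene MSN2 stood at 121.5 and 124.2 FPKM in the wild type and at 78.8 and 86.1 in Mut2, 1.49-fold lower (adjusted p = 1e-04). RCK1, a kinase gene, was 1.94-fold lower (adjusted p = 0.000907), at 5.4 in both wild-type libraries and 2.3 and 2.32 in Mut2. MSN1 was 1.66-fold lower (adjusted p = 0.000434, and 0.413 without the block). Of 9 MAP kinase phosphatase genes, 3 were called in each direction and none of them without the block. Without Mut2 library 0 there were 1 higher and 2 lower, and without WT library 1 none higher and 2 lower. PTP2, the tyrosine phosphatase gene with the strongest known action on Hog1, was not called (adjusted p = 0.883), with 29.2 and 32.5 FPKM in the wild type and 31.8 and 28.5 in Mut2. PTP1 was 1.56-fold lower (adjusted p = 0.000509, and 0.552 without the block).

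The general stress genes did not move one way. Of 54 genes of the Msn2 and Msn4 response, 13 were called higher and 10 lower (11 and 5 without Mut2 library 0, 3 and 2 without the block), with a median of 0.12. These shares lie near the 18.9% and 16.5% of all tested features. Leaving out WT library 1 left 7 called higher, and leaving out WT library 0 left 5 called lower. GPH1, the glycogen phosphorylase gene, stood at 28.6 and 33.5 FPKM in the wild type and at 90.6 and 127.0 in Mut2, 3.39-fold higher (adjusted p = 5.09e-06). ECM4, a glutathione transferase gene, was 3.15-fold higher (adjusted p = 1.4e-06). SSA4, a stress-inducible Hsp70 gene, stood at 184.8 and 166.8 FPKM in the wild type and at 46.8 and 45.9 in Mut2, 3.73-fold lower (adjusted p = 1.63e-06). Of 23 trehalose and glycogen genes, 6 were called higher and 3 lower (4 and 2 without Mut2 library 0, 2 and 0 without the block). GIP2, a glycogen regulator gene, was 1.93-fold higher (adjusted p = 0.00022). Of 28 heat shock chaperone genes, 8 were called lower and 2 higher (3 and 3 without Mut2 library 0, 2 and 2 without the block), the higher ones being the cyclophilin gene CPR7 at 1.78-fold (adjusted p = 3.31e-05) and the Hsp110 gene SSE2 at 1.56-fold (adjusted p = 0.000728). Leaving out either wild-type library likewise left 3 called lower.

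Cell wall genes held some of the largest differences upward. PIR3 (YKL163W, chromosome XI, 144401 to 145378), the gene of a wall protein with internal repeats, stood at 188.5 and 233.9 FPKM in the wild type and at 1129 and 1076 in Mut2, 5.23-fold higher (adjusted p = 6.49e-07). CIS3, of the same protein family, stood at 421.2 and 596.6 FPKM in the wild type and at 1665 and 2037 in Mut2, 3.67-fold higher (adjusted p = 7.61e-08). CWP2, an abundant wall mannoprotein gene, was 2.41-fold higher (adjusted p = 7.49e-05, and 0.199 without the block), from 40809 and 24912 FPKM to 108745 and 54281. CHS1, the repair chitin synthase gene, was 2.51-fold lower (adjusted p = 1.7e-07), from 398.2 and 396.0 FPKM to 165.6 and 149.9. In all, 12 of 31 wall genes were called higher and 4 lower (8 and 5 without Mut2 library 0, 3 and 1 without the block). SLT2, the MAP kinase gene of wall integrity, was not called (adjusted p = 0.316).

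OCH1 (YGL038C, chromosome VII, 425362 to 426804), the mannosyltransferase gene that Skn7 controls, stood at 88.4 and 107.1 FPKM in the wild type and at 151.9 and 162.6 in Mut2. It was 1.61-fold higher (adjusted p = 6.61e-06), with no overlap. MNN1, which adds terminal mannose in the Golgi, was 2.85-fold higher (adjusted p = 1.79e-07), at 41.5 and 34.7 FPKM in Mut2. The complex genes VAN1 and ANP1 were lower by 1.39-fold (adjusted p = 0.000582) and 1.78-fold (adjusted p = 0.000852, and 0.486 without the block). Of 16 genes of this list, 2 were called higher, OCH1 and MNN1, and 4 lower. The 4 became 3 without Mut2 library 0, 2 without WT library 0 and 1 without the block.

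Oxidative defence genes, many of them targets of Yap1 and Skn7, were mostly higher, and were so before salt. At 0 min 18 of the 30 were called higher and none lower, against 12.2% and 8.68% of all tested features. The change of the difference from 0 to 20 min was called downward in 10 and upward in 2. Over all tested features that change was called downward in 12.8% and upward in 12.5%. The shares over all tested features at 20 min were 18.9% called higher and 16.5% lower. Of 30 genes, 17 were called higher and 4 lower (15 and 2 without Mut2 library 0, 11 and 0 without the block), with a median of 0.41. TRX2, the thioredoxin gene, stood at 941.9 and 972.8 FPKM in the wild type and at 3385 and 2822 in Mut2, 3.23-fold higher (adjusted p = 6.67e-05). TSA2, a peroxiredoxin gene, was 3.32-fold higher (adjusted p = 2.61e-05), from 36.2 and 44.7 FPKM to 121.7 and 151.4. OYE3, an old yellow enzyme gene, was 3.62-fold higher (adjusted p = 3.68e-05) and the glutathione peroxidase gene GPX2 2.2-fold higher (adjusted p = 0.000815). The 4 called lower included SKN7, described above, and CCP1, the cytochrome c peroxidase gene, with a difference of -0.54 (adjusted p = 0.00366). CCP1 lost its call without Mut2 library 0 or the block (adjusted p = 0.677 without the block), and its groups overlapped.

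Genes of sulfate assimilation and methionine synthesis were higher with no member called lower. Of 28, 15 were called higher (13 without Mut2 library 0, 9 without the block), and the median was 0.54, although leaving out WT library 1 gave 14 higher and 2 lower. MET17 (YLR303W, chromosome XII, 732542 to 733876), which encodes the enzyme that fixes sulfide into homocysteine, stood at 147.2 and 118.7 FPKM in the wild type and at 687.8 and 535.3 in Mut2. It was 4.56-fold higher (adjusted p = 2.16e-08), and it overlaps YLR302C, which makes the value uncertain. MET6 (YER091C, chromosome V, 339864 to 342167), the methionine synthase gene, stood at 43.3 and 35 FPKM in the wild type and at 195.8 and 141.2 in Mut2, 4.19-fold higher (adjusted p = 2.72e-07). MET16, the PAPS reductase gene, and MET3, the ATP sulfurylase gene, were 3.06-fold (adjusted p = 1.69e-05) and 2.73-fold higher (adjusted p = 2.13e-05).

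The Cbf1 site CACGTG, its own reverse complement, was found before 11 of the 28 sulfate and methionine genes (39.3%). It was found in 3.57% of all windows of 300 bases before a start codon. Among genes called at least 2-fold higher the share was 5.13%, and among those called at least 2-fold lower 3.01%. The match in MET16 is shown with 12 bases on each side, minus strand, RefSeq R64, the match in capitals.
MET16, chrXVI:877793-877822: ttatcatcatttCACGTGgctagtaaaaga
MET6 and MET3 had no match to these letters in that window.

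Ribosome assembly genes were mostly higher in Mut2. Of 119 ribosome biogenesis factors, 73 were called higher and 3 lower (48 and 3 without Mut2 library 0, 14 and 0 without the block), against 18.9% and 16.5% of all tested features. The median was 0.48, or 0.37 without Mut2 library 0. The medians of the pairs were 0.52 for library 0 and 0.42 for library 1, and 98 of the 119 (82.4%) were above 0 in both, against 40.2% of all tested features. NOG2, a GTPase gene of the large subunit, stood at 9.02 and 7.52 FPKM in the wild type and at 27.0 and 22.2 in Mut2, 2.76-fold higher (adjusted p = 1.19e-05). It hosts SNR191 in an intron, which makes the value uncertain. NOP15, a gene for an assembly factor of the large subunit, stood at 17.4 and 15.7 FPKM in the wild type and at 46.2 and 39.4 in Mut2, 2.49-fold higher (adjusted p = 8.41e-05). UTP6, of the small subunit processome, was 3.02-fold higher (adjusted p = 0.000651, and 0.099 without the block), from 4.92 and 2.17 FPKM to 18.9 and 7.58. SYO1, the chaperone gene for Rpl5 and Rpl11, was 2.61-fold higher (adjusted p = 0.000818), from 1.51 and 0.543 FPKM to 5.14 and 3.31. The 3 members called lower, named after their values were seen, were RPF1, DBP2 and RRP1, at -1.03, -0.84 and -0.35, and none of these was called without the block (adjusted p = 0.104, 0.135 and 0.221).

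The PAC core, GATGAG on one strand and on the other strand CTCATC, which Dot6 and Tod6 bind, was found before 106 of the 119 ribosome biogenesis genes (89.1%), against 19.1% of all windows of the same length. It was found before 24.8% of the genes called at least 2-fold higher and 14.3% of those called at least 2-fold lower. Matches in NOG2 and UTP6, both named above, are shown with 12 bases on each side, minus strand, RefSeq R64, the match in capitals.
NOG2, chrXIV:723276-723305: ttttgcccgatgCTCATCgcaaaaattttt
UTP6, chrIV:1358990-1359019: aaagatctgggcGATGAGctaaatatcagg
DOT6 itself was 1.33-fold higher (adjusted p = 0.0042), a call lost without Mut2 library 1 (adjusted p = 0.0553) or the block (0.727).

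The other parts of the ribosome programme differed less. Of 31 genes for RNA polymerase I and III subunits and factors, 8 were called higher and 2 lower, but without Mut2 library 0 these became 2 and 5, and leaving out either wild-type library left 3 called higher (2 and 0 without the block). RPA34 and RRN11, both of RNA polymerase I transcription, were 2.16-fold (adjusted p = 0.000905) and 2.01-fold higher (adjusted p = 0.00102). Of 138 cytosolic ribosomal protein genes, 35 were called higher and 6 lower (23 and 4 without Mut2 library 0, 6 and 1 without the block), with a median of 0.09. Leaving out any of the other 3 libraries left 3 of them called lower. RPS9A (YPL081W, chromosome XVI, 404950 to 406044) stood at 123.4 and 82.0 FPKM in the wild type and at 418.0 and 406.9 in Mut2, 4.07-fold higher (adjusted p = 1.79e-07). RPL22B was 3.58-fold higher (adjusted p = 1.55e-06) and RPS7B 2.05-fold (adjusted p = 1.4e-06). RPL7B was 3.02-fold higher (adjusted p = 1.13e-06, and 0.113 without the block), and it hosts SNR59, which makes its value uncertain. SFP1, a regulator gene of ribosomal genes, was lower, from 89.0 and 100.2 FPKM to 54.9 and 55.8 (1.69-fold, adjusted p = 9.24e-06).

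**Figure D4:**
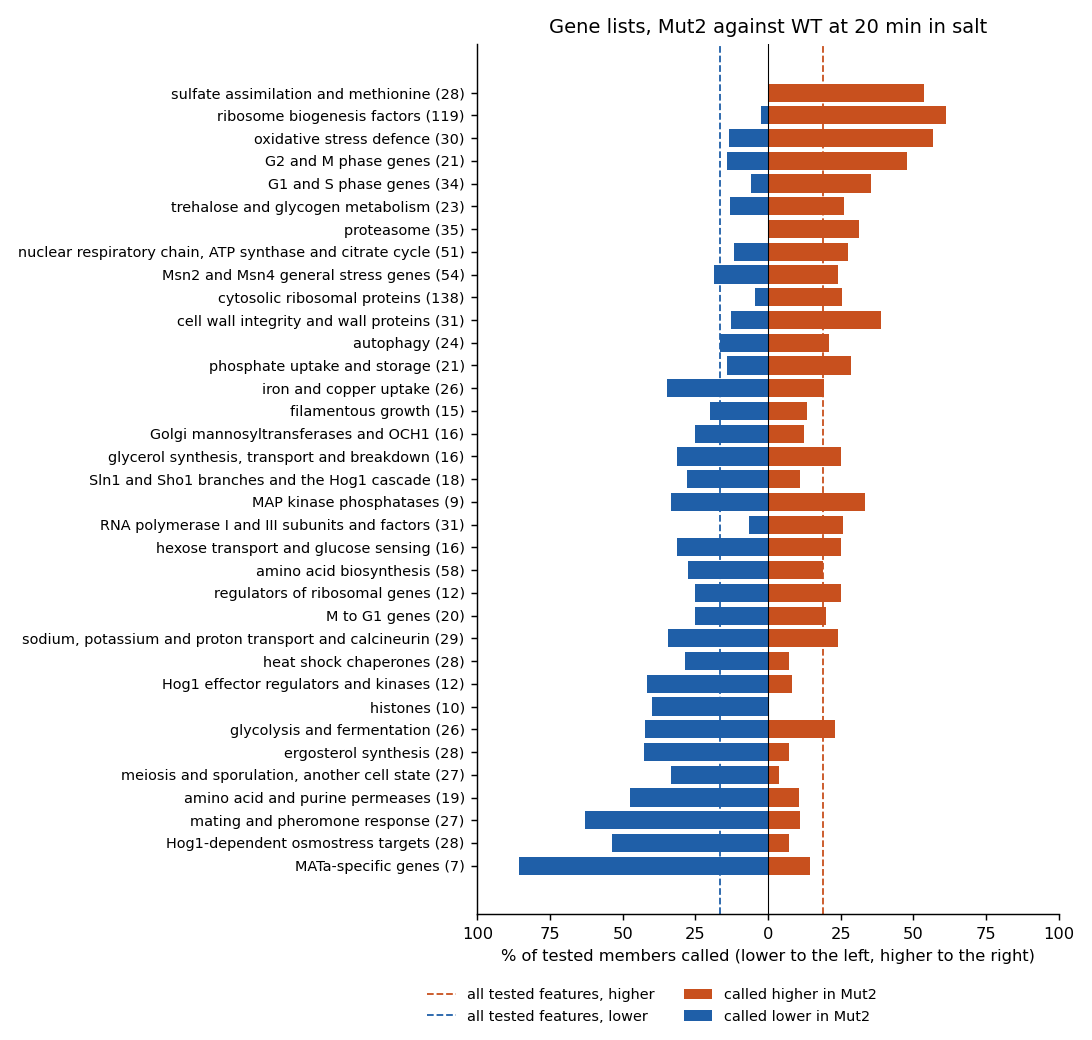
For 35 gene lists with at least 7 tested members, bars give the percentage of tested members called higher (right) or lower (left) in Mut2, ordered by the median difference, with the number tested in brackets. Dashed lines mark the 18.9% and 16.5% of all tested features, and ribosome biogenesis factors (73 of 119 higher) and Hog1-dependent targets (15 of 28 lower) lie near opposite ends.

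Genes of mating type a cells were mostly lower in Mut2, and were so before salt. Of 27 genes of mating and pheromone response that were tested, 17 were called lower and 3 higher (12 and 2 without Mut2 library 0, 8 and 0 without the block), with a median of -0.41. Leaving out WT library 0 left 10 called lower. At 0 min 14 of the 27 were called lower and 2 higher, with a median of -0.53, against 8.68% and 12.2% of all tested features. Of the 7 genes specific to mating type a, 6 were called lower and none higher at 0 min. MFA1 (YDR461W, chromosome IV, 1385176 to 1385286), which encodes the mating pheromone a-factor, stood at 3023 and 3661 FPKM in the wild type and at 545.0 and 728.1 in Mut2, 5.27-fold lower (adjusted p = 4.26e-05). BAR1, the gene of the protease that degrades alpha factor, stood at 33.5 and 34.9 FPKM in the wild type and at 9.56 and 12.9 in Mut2, 2.9-fold lower (adjusted p = 1.77e-06). FUS1, a gene of cell fusion, was low in both strains, at 5.85 and 6.21 FPKM in the wild type and 1.93 and 2.62 in Mut2, 2.16-fold lower (adjusted p = 7.59e-05). The receptor gene STE2 went the other way, from 93.7 and 73.1 FPKM to 130.1 and 104.3, 1.4-fold higher (adjusted p = 0.00236, and 0.126 without the block).

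The markers checked the cell type. Of 7 genes specific to mating type a, 6 were called lower and STE2 higher (5 and 1 without Mut2 library 0, 4 and 0 without the block). All 7 were measured in every library, with sums of 8202 and 6464 FPKM in the wild type and 3168 and 2805 in Mut2. Of 4 genes specific to mating type alpha, STE3 stayed at or below 0.596 FPKM and MF(ALPHA)1 at or below 0.328 in every library, and the sums were 35.7 and 46.9 FPKM in the wild type and 32.5 and 42.9 in Mut2. SAG1 and MF(ALPHA)2 made up nearly all of those sums, and neither was called. The meiosis and sporulation list summed to 360.4 and 437.8 FPKM in the wild type and to 254.1 and 263.2 in Mut2. Of its 27 tested genes 9 were called lower and 1 higher (7 and 0 without Mut2 library 0, 6 and 0 without the block), and leaving out WT library 0 left 5 called lower. Among them was SPS100, a spore wall gene, 3.13-fold lower (adjusted p = 6.39e-06). SPS100 overlaps SUT169, which makes its value uncertain. In whole cultures, fewer cells that express a gene and less RNA of it per cell cannot be told apart.

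Amino acid genes went both ways, as did all tested features (18.9% called higher and 16.5% lower). Of 58 biosynthesis genes outside the methionine list, 16 were called lower and 11 higher (14 and 6 without Mut2 library 0, 10 and 5 without the block), and leaving out WT library 1 left 6 called higher. LEU1, of leucine synthesis, stood at 184.6 and 173.1 FPKM in the wild type and at 66.4 and 57.0 in Mut2, 2.87-fold lower (adjusted p = 2.44e-09). ILV3 and LYS9, of branched-chain amino acid and lysine synthesis, were 1.91-fold (adjusted p = 2.55e-06) and 1.87-fold lower (adjusted p = 4.84e-07). ARG3, of arginine synthesis, was 2.18-fold lower (adjusted p = 7.59e-05). Of 19 permease genes, 9 were called lower and 2 higher (9 and 1 without Mut2 library 0, 6 and 0 without the block), with a median of -0.40. DIP5, for acidic amino acids, stood at 50.8 and 51.4 FPKM in the wild type and at 13.0 and 22.1 in Mut2, 2.9-fold lower (adjusted p = 6.39e-06). GAP1, the general permease gene, was 1.97-fold lower (adjusted p = 1.82e-05).

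Of 28 ergosterol genes, 12 were called lower, 2 higher and 14 neither (15 lower and 1 higher without Mut2 library 0, 6 and 0 without the block), with a median of -0.26. Leaving out any other of the 4 libraries left 9 called lower. HMG1, the HMG-CoA reductase gene, stood at 164.5 and 156.7 FPKM in the wild type and at 101.8 and 82.9 in Mut2, 1.74-fold lower (adjusted p = 1.25e-05). ERG10, which starts the pathway, was 1.52-fold lower (adjusted p = 0.000282). MOT3, a repressor gene of the pathway, was 2.61-fold lower (adjusted p = 0.00031, and 0.572 without the block), with overlapping groups.

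Metal, phosphate and ion genes held single large differences rather than shifts of a whole list. The shares over all tested features were 18.9% called higher and 16.5% lower. FRE4 (YNR060W, chromosome XIV, 739951 to 742110), a ferric reductase gene, stood at 110.1 and 121.3 FPKM in the wild type and at 7.67 and 7.81 in Mut2. It was 13.3-fold lower (adjusted p = 2.78e-09), with both Mut2 libraries far below both wild-type libraries. FIT1, a wall mannoprotein gene of siderophore iron uptake, was 3.13-fold lower (adjusted p = 1.69e-07), and TIS11, which destabilises mRNAs when iron is short, 2.67-fold higher (adjusted p = 0.000123, and 0.0529 without the block). Of 26 iron and copper genes 9 were called lower and 5 higher (6 and 3 without Mut2 library 0, 2 and 2 without the block), and leaving out WT library 1 left 7 and 2. PHO84, the phosphate transporter gene, stood at 26.2 and 22.1 FPKM in the wild type and at 73.0 and 74.9 in Mut2, 2.99-fold higher (adjusted p = 0.0008), a value made uncertain by the overlapping YNCM0001W. PHO3, an acid phosphatase gene, was 1.83-fold lower (adjusted p = 8.87e-05). Of 21 phosphate genes tested, 6 were called higher and 3 lower (5 and 3 without Mut2 library 0, 3 and 1 without the block). Of 29 ion transport and calcineurin genes tested, 10 were called lower and 7 higher, with 9 and 2 without Mut2 library 0, 8 and 4 without WT library 0, 6 and 1 without WT library 1 and 4 and 1 without the block. PMA2, a minor proton pump gene, was 1.78-fold lower (adjusted p = 0.000163).

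Among sugar genes, HXT2 and HXT3, which encode hexose transporters, were higher by 2.09-fold (adjusted p = 0.000313) and 1.88-fold (adjusted p = 2.45e-06), and HXT5 was 1.86-fold lower (adjusted p = 7.36e-05). HXT3 stood at 109.1 and 96.9 FPKM in the wild type and at 219.5 and 172.1 in Mut2. HXT1, named after its values were seen, stood at 4329 and 4532 FPKM in the wild type and at 2946 and 2713 in Mut2. It was 1.57-fold lower (adjusted p = 4.36e-06). Of 16 hexose transport and glucose sensing genes tested, 4 were called higher and 5 lower (3 and 4 without Mut2 library 0, 2 and 3 without the block). Of 26 glycolysis and fermentation genes, 11 were called lower and 6 higher (10 and 6 without Mut2 library 0, 4 and 2 without the block), with a median of -0.24. ALD6, the cytosolic acetaldehyde dehydrogenase gene, stood at 4161 and 4397 FPKM in the wild type and at 1846 and 1842 in Mut2, 2.32-fold lower (adjusted p = 5.02e-07). PDC6, a minor pyruvate decarboxylase gene, was 4.15-fold lower (adjusted p = 3.5e-06), from 11.5 and 13.1 FPKM to 2.07 and 2.35. TDH1 was 2.52-fold higher (adjusted p = 7.52e-05), from 239.5 and 210.2 FPKM to 692.5 and 464.0. Of 51 nuclear genes of the respiratory chain, ATP synthase and citrate cycle, 14 were called higher and 6 lower (8 and 2 without Mut2 library 0, 1 and 0 without the block), and leaving out WT library 1 left 9 called higher. Among all tested features, 18.9% were called higher and 16.5% lower. ATP20, of ATP synthase, was 3.17-fold higher (adjusted p = 0.000646), from 110.6 and 83.9 FPKM to 391.6 and 241.1.

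Cell cycle genes of G2 and M phase and of G1 and S phase were higher more often than lower. The shares over all tested features were 18.9% called higher and 16.5% lower. Of 21 genes of G2 and M phase, 10 were called higher and 3 lower (8 and 2 without Mut2 library 0, 5 and 0 without the block), with a median of 0.33. SWI5, the transcription factor gene, stood at 11.2 and 11.9 FPKM in the wild type and at 26.2 and 25.7 in Mut2, 2.14-fold higher (adjusted p = 3.93e-07), and the mitotic cyclin gene CLB2 was 1.73-fold higher (adjusted p = 0.000417). Of 34 genes of G1 and S phase, 12 were called higher and 2 lower (8 and 1 without Mut2 library 0, 5 and 0 without the block). The cyclin genes PCL2 and CLN1 were 2.28-fold (adjusted p = 2.71e-07) and 1.73-fold higher (adjusted p = 6.95e-05), and SVS1 was 2.86-fold higher (adjusted p = 6.86e-07). Of 20 M to G1 genes, 4 were called higher and 5 lower (3 and 5 without Mut2 library 0, 2 and 3 without the block). DSE4, a daughter cell glucanase gene, was 2.29-fold higher (adjusted p = 5.56e-07). Of 10 histone genes, 4 were called lower and none higher (4 and 1 without Mut2 library 0), and none was called without the block. HTB2 was 1.55-fold lower (adjusted p = 0.000627, and 0.374 without the block) and HHF1 1.64-fold lower (adjusted p = 0.00563, and 0.339 without the block), the latter uncertain because HHF2 is near-identical. Of 15 filamentous growth genes, 3 were called lower and 2 higher (2 and 2 without Mut2 library 0, 0 and 2 without the block).

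Of 35 proteasome genes, 11 were called higher and none lower (6 and 0 without Mut2 library 0, 2 and 0 without the block), with a median of 0.16. Leaving out WT library 1 also left 6. PUP2, a core particle gene, stood at 175.9 and 152.0 FPKM in the wild type and at 257.7 and 281.1 in Mut2, 1.64-fold higher (adjusted p = 0.000313). RPN12, of the lid, was 1.45-fold higher (adjusted p = 0.00101). Of 24 autophagy genes, 5 were called higher and 4 lower (2 and 2 without Mut2 library 0, 2 and 0 without the block), and leaving out WT library 1 left 2 and 3. The 5 and 4 of 24 lie near the 18.9% and 16.5% of all tested features. ATG41 stood at 10.4 and 12.6 FPKM in the wild type and at 33.2 and 42.9 in Mut2, 3.11-fold higher (adjusted p = 2.43e-06).

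Outside the lists, IMD2 (YHR216W, chromosome VIII, 554396 to 555967), which encodes the IMP dehydrogenase of guanine nucleotide synthesis, stood at 21.4 and 29.7 FPKM in the wild type and at 330.0 and 280.2 in Mut2. It was 11.6-fold higher (adjusted p = 2.78e-09), the largest difference upward among the protein-coding genes that the naming rule takes. MHF1, of a DNA repair complex, stood at 449.3 and 353.7 FPKM in the wild type and at 1460 and 1646 in Mut2, 3.88-fold higher (adjusted p = 1.5e-05). PRY2, a secreted sterol-binding protein gene, was 3.7-fold higher (adjusted p = 1.96e-07). LSM2 and HTL1 were 4.43-fold and 3.61-fold higher (adjusted p = 0.00434 and 0.0113), calls lost without Mut2 library 0 (adjusted p = 0.0636 and 0.136) or WT library 1 (0.0693 and 0.132). HTL1 also lost its call without the block (adjusted p = 0.0625). Of the largest differences downward, the uncharacterised YOL014W stood at 54.1 and 89.9 FPKM in the wild type and at 5.25 and 12.2 in Mut2, 7.79-fold lower (adjusted p = 5.56e-07). YJL107C was 4.26-fold lower (adjusted p = 1.79e-07), and its overlap with PRM10, which was 3.15-fold lower (adjusted p = 1.07e-07), makes both values uncertain. YDL129W was 3.91-fold lower (adjusted p = 1.7e-07), from 40.9 and 46.5 FPKM to 10.4 in both Mut2 libraries. YKL096C-B, at 17.3 and 18.6 FPKM in the wild type, was listed at 0 in both Mut2 libraries (adjusted p = 0.0162), a call lost without Mut2 library 0 (adjusted p = 0.0863), WT library 0 (0.0525), WT library 1 (0.0921) or the block (0.0525).

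The difference between the strains depended on the time in salt. A test of the difference at 20 min against that at 0 min called 1606 features (25.3%), 792 with a higher value at 20 min (12.5%) and 814 with a lower one (12.8%). Leaving out Mut2 library 0 at 20 min gave 440 higher and 647 lower, WT library 1 at 20 min 497 and 643, and WT library 0 at 0 min 582 and 511. With protein-coding genes scaled to equal totals the split was 1106 higher and 403 lower. Without the block it called 199, or 91 (1.43%) and 108 (1.7%). Of all tested features, 12.2% were called higher and 8.68% lower in Mut2 at 0 min. At 10 min 39.5% were called, 20.2% higher and 19.4% lower. The 10 min differences, here and in the next paragraph, cannot be told apart from a split of the groups that is described further on. The osmostress genes moved from higher in Mut2 to lower. GPD1 differed by 1.83 at 0 min, -0.08 at 10 min and -0.54 at 20 min, a change of -2.37 ± 0.16 between 0 and 20 min (adjusted p = 2.91e-07). STL1 went from 0.65 to -0.62 and -1.75, a change of -2.39 ± 0.11 (adjusted p = 4.43e-09), and GRE2 from 2.92 to -0.19 and -0.74, a change of -3.66 ± 0.15 (adjusted p = 4.43e-09). HSP12 went from 4.10 at 0 min to -0.06 and -0.26, and so lost a difference that it had before salt. Of the 28 Hog1 targets, 16 were called higher and none lower in Mut2 at 0 min, 4 higher and 8 lower at 10 min, and 2 higher and 15 lower at 20 min. The change from 0 to 20 min was called downward in 19 of them and upward in 1.

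In ribosome assembly genes the change from 0 to 20 min ran the opposite way. Of the 119, none was called higher and 9 lower at 0 min, against 12.2% and 8.68% of all tested features. They were thus not called lower more often than features in general before salt. At 10 min 1 was called higher and 66 lower, and at 20 min 73 higher and 3 lower. The change from 0 to 20 min was called upward in 69 and downward in 1, against 12.5% and 12.8% of all tested features. NOP15 differed by -0.03 at 0 min, -0.26 at 10 min and 1.32 at 20 min, a change of 1.35 ± 0.25 from 0 min (adjusted p = 0.00167). MET6 went from -0.01 at 0 min to 1.62 and 2.07 (change of 2.08 ± 0.20, adjusted p = 6.93e-06), and RPS9A from -0.05 to 0.60 and 2.02 (2.08 ± 0.18, adjusted p = 3.64e-06). MET6 did not stand for its list, in which 15 of the 28 sulfate and methionine genes were called higher and 1 lower before salt. The change from 0 to 20 min in that list was called upward in 6 and downward in 4, with a median of -0.08. Of the 31 wall genes, 19 were called higher and none lower at 0 min, and the change from 0 to 20 min was called downward in 15 and upward in 1. CIS3 stayed near its value, at 1.95, 1.84 and 1.88, and its change was not called (adjusted p = 0.74). PIR3 went from 4.65 to 3.41 and 2.39 (change of -2.26 ± 0.26, adjusted p = 3.45e-05). OCH1, of the Golgi list, went from 1.5 to 1.05 and 0.69 (-0.82 ± 0.10, adjusted p = 5.08e-05, and 0.118 without the block). FRE4 widened from -1.79 to -2.77 and -3.74 (change of -1.95 ± 0.21, adjusted p = 2.47e-05). BAR1 stayed near the same value, at -1.56, -1.85 and -1.54.

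**Figure D5:**
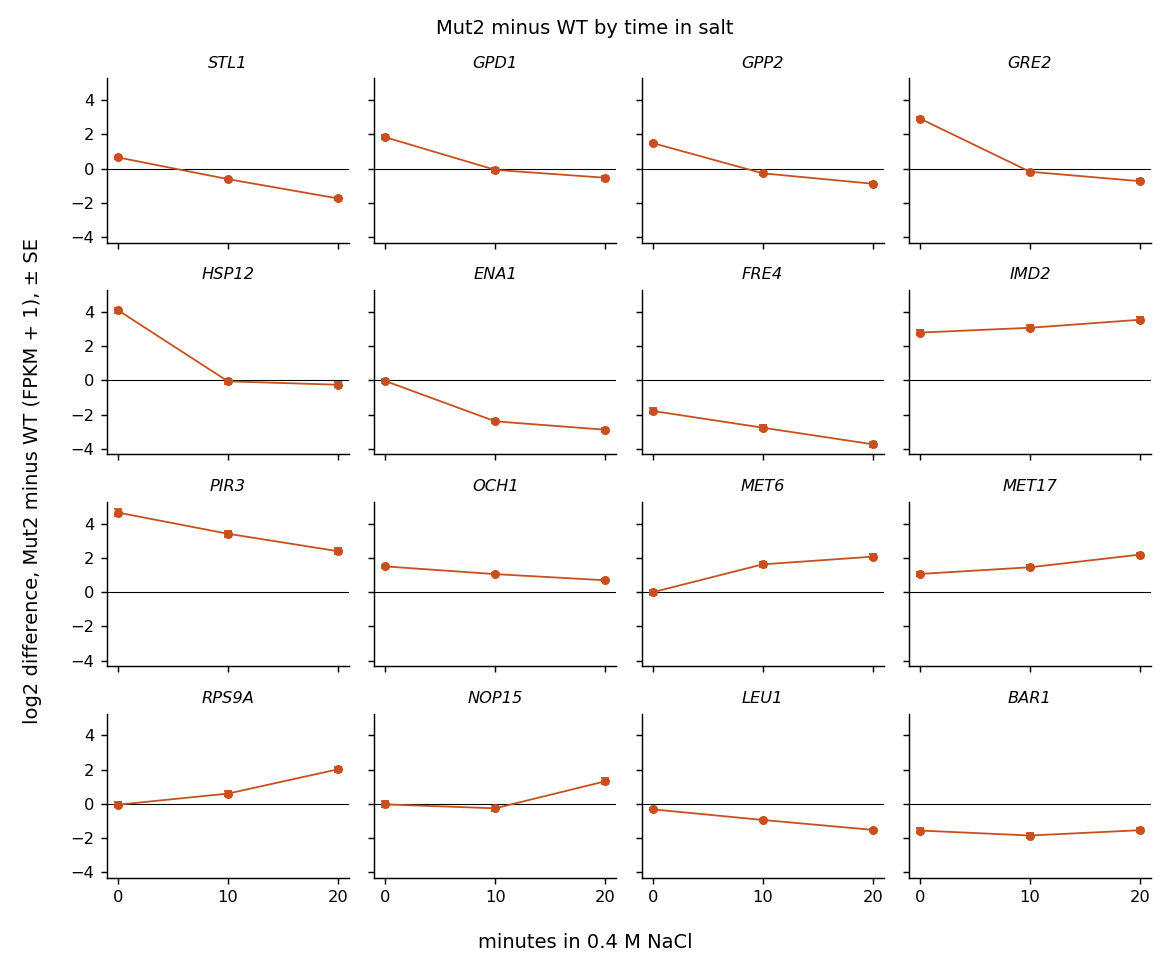
Log2 difference in FPKM plus 1, Mut2 minus WT, at 0, 10 and 20 min in salt for 16 genes, with the SE of the fit as bars, many of them smaller than the points. GPD1, GPP2, GRE2 and HSP12 start above 0 and end below it, whereas MET6, RPS9A and NOP15 start near 0 and end above 1.

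The comparison with 10 min crosses a split between groups that is not the strain. In 6 groups, WT and Mut1 at 20 min and Mut2 and Mut3 at 10 and 20 min, RPL22A stood between 80.1 and 238.4 FPKM, and in the other 6 groups between 4.44 and 17.6. RPL43A, RPL36B and RPL39 split the groups in the same way, RPL43A at 493.9 to 1517 FPKM against 15.8 to 63.7. The wild type and Mut2 at 20 min lie on the same side, so the 20 min comparison does not cross the split. At 10 min the wild type lies on the low side and Mut2 on the high side. The test of 20 min against 10 min called 1014 features (15.9%), 559 higher (8.79%) and 455 lower (7.16%). Strain and side of the split go together at 10 min, so for no gene can a change in this test be told apart from the split. With protein-coding genes at equal totals the test called 323 higher and 410 lower. Without the block it called 38, of which 32 were higher (0.503%) and 6 lower (0.0944%). STL1 was called in it, with a change of -1.13 ± 0.11 (adjusted p = 4.27e-05), as were GPP2 at -0.61 ± 0.11 (adjusted p = 0.00278, and 0.189 without the block) and NOP15 at 1.58 ± 0.25 (adjusted p = 0.00154).

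Mut2 was also set against Mut1 at 20 min, to see what the added M92K change in Ypd1 goes with. Only 57 features were called (0.896%), 16 higher (0.252%) and 41 lower (0.645%) in Mut2, and none without the block, where 263 had an unadjusted p under 0.05. With protein-coding genes at equal totals, 35 were higher and 10 lower. STL1 stood at 1014 and 815.3 FPKM in Mut2 and at 1332 and 1382 in Mut1, 1.49-fold lower in Mut2 (adjusted p = 0.00504), a call lost without Mut1 library 1 (adjusted p = 0.0815) or the block (0.148). FMP48 was 1.52-fold lower (adjusted p = 0.0172), a call lost without either Mut1 library (adjusted p up to 0.137) or the block (0.152). MET17 was 1.58-fold lower (adjusted p = 0.0172), lost without Mut1 library 1 (adjusted p = 0.21) or the block (0.661). ENA1, GPD1 and OCH1 were not called, with differences of 0.10 ± 0.12, -0.14 ± 0.11 and -0.05 ± 0.07. YLR154W-F, listed at 0 in both Mut2 libraries, was called (adjusted p = 0.00815), a call lost without Mut2 library 0 (adjusted p = 0.0625) or the block (0.14). Every call named here was lost without at least 1 library. Leaving out Mut1 library 1 left 3 calls, leaving out Mut1 library 0 left 31, leaving out Mut2 library 0 left 22, and leaving out Mut2 library 1 gave 150.

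The genes that salt moved in Mut3 gave gene sets chosen without the libraries compared here. Over all tested features, 18.9% were called higher and 16.5% lower at 20 min (4.62% and 3.79% without the block). Of 322 protein-coding genes at least 4-fold higher at 20 than at 0 min in both pairs of Mut3 libraries, 121 were called lower in Mut2 than in the wild type at 20 min (37.6%) and 46 higher (14.3%), with a median of -0.18. Of 296 genes at least 4-fold lower in both Mut3 pairs, 153 were called higher in Mut2 (51.7%) and 19 lower (6.42%), with a median of 0.41. Without Mut2 library 0 the counts were 95 lower and 34 higher for the first set and 97 higher and 18 lower for the second, and leaving out WT library 1 left 26 called higher in the first. Leaving out WT library 0 left 12 called lower in the second. Without the block they were 41 lower and 16 higher, and 49 higher and 6 lower.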

How the data were processed

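Poly(A) RNA from 24 libraries was sequenced from a stranded mRNA kit, per the labels' protocols. The authors deposited FPKM values per feature, and the submitters' processing notes name TopHat2, Cuffdiff and the sacCer3 build without versions or roles. Counts and depth are not given, so counting error is unknown. The 7126 features were matched to RefSeq R64 by locus tag or symbol (6160 matched, 966 not). From the FPKM values, log2(FPKM + 1) was fitted with limma 3.58.1 in R 4.3.3, with 12 group means, the library number as a block and a trend in the variance (residual df 11, prior df 2.57). Tests were two-sided and adjusted by Benjamini-Hochberg over the 6359 features. The code was tested on simulated data. The numbers 0 and 1 were not tied to the replicate numbers of the labels, and pairing by them follows the choice of libraries. Deviations from the group means correlated between same-numbered libraries at 0.23 to 0.60 over the 66 pairs of groups. The lowest value, 0.23, was that of Mut2 and WT at 20 min, the pair compared here. The gene lists, the compared libraries and the tests were chosen with earlier results of these data known. Genes named were a fixed panel, the 12 largest called differences in each direction among protein-coding genes of at least 5 FPKM with no overlap, the 4 largest for each other test and direction, and up to 4 called members of each list with the largest differences, and a few more were picked from the lists with their values in view. Genes with almost the same sequence were looked for with blastn 2.17.0. Alternatives were another pseudocount, no filter, rescaled columns, protein-coding genes only, no block, fewer groups and leaving out each library.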

Additional observations from a re-analysis of the deposited data

Results flagged for a closer look

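RNA genes summed to 75006.3 FPKM in library 0 of Mut2 at 20 min, above every other library of the study. Groups of 2 libraries are too small to test 1 library against the rest of its group.

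The difference between Mut2 and WT changed between 0 and 20 min, by the limma test of the difference itself. It fell for STL1 (-2.39), GPD1 (-2.37), GPP2 (-2.37), GPP1 (-0.71), ENA1 (-2.85), GRE2 (-3.66), CTT1 (-0.96), HSP12 (-4.36), SSK1 (-1.04), PTP2 (-1.29), SLT2 (-1.87), OCH1 (-0.82) and DDR2 (-4.17), each on the log2 scale. GPP1, CTT1, SSK1, SLT2 and OCH1 were not called without the block (adjusted p = 0.0664, 0.128, 0.0895, 0.627 and 0.118). DDR2, a stress gene, differed by 4.83 at 0 min and 0.66 at 20 min. Short or RNA features also appeared in this test, among them YIL046W-A (-5.63), YLR154W-F (-5.62), SNR60 (10.34), YJL052C-A (7.93), SNR49 (7.47) and the tRNA gene tL(GAG)G (6.39), which was listed at 0 in every 20 min library of both strains. YIL046W-A, SNR60 and SNR49 lost their calls without most single libraries (adjusted p up to 0.215, 0.234 and 0.207). None of these 3, nor YLR154W-F or YJL052C-A, was called without the block (adjusted p = 0.145, 0.159, 0.171, 0.0515 and 0.0875). At 20 min, SNR60 stood at 397.6 FPKM in Mut2 library 0 and was listed at 0 in library 1. SNR49 stood at 509.9 and 7.16 FPKM in the same libraries.

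Between 10 and 20 min the difference changed for STL1 (-1.13), GPP1 (-0.56), GPP2 (-0.61), GRE2 (-0.55), ALD3 (-0.54), OCH1 (-0.36), YLR154W-F (-6.16), YJL052C-A (7.88), YGL188C-A (7.86), SNR190 (7.17) and SNR34 (6.9). RPL22A (-4.71), RPL43A (-4.7) and RPL39 (-3.88) changed too, and these follow the split of the groups described above. Strain and split cannot be told apart for any gene of this paragraph. The calls of GRE2, ALD3, OCH1, YJL052C-A, YGL188C-A, SNR190 and SNR34 were each lost without 4 to 6 single libraries (highest adjusted p 0.0949, 0.0962, 0.091, 0.0649, 0.133, 0.122 and 0.203). Without the block, STL1, RPL22A and RPL43A were called and the other genes of this paragraph were not (adjusted p = 0.246 for GPP1, 0.189 for GPP2, 0.0666 for YLR154W-F and 0.13 for RPL39).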

How the results depend on the processing

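For Mut2 against WT at 20 min, 2247 features were called. With a pseudocount of 0.1, no filter on low values, median-ratio rescaling or protein-coding genes at equal totals, the counts were 2210, 2246, 2451 and 1855. Without the replicate block there were 535, with no block and rescaling 606, and in a fit of the compared groups only 0 (2112 at an unadjusted p under 0.05). Leaving out 1 library gave 1469 (WT library 1) to 1946 (Mut2 library 1). For the difference at 20 against 0 min (1606 called), the fit without the block gave 199, without block and with rescaling 258, with the compared groups only 662, and without 1 library 1087 to 1655. At equal protein-coding totals its split became 1106 higher and 403 lower, and the median of all features moved from 0.02 to 0.19. For 20 against 10 min (1014 called) the same 3 fits gave 38, 65 and 10, and leaving out 1 library 545 (Mut2 library 0 at 20 min) to 1166 (Mut2 library 1 at 20 min), with 323 higher and 410 lower at equal protein-coding totals. For Mut2 against Mut1 (57 called), rescaling gave 131, no block 0 (263 at an unadjusted p under 0.05), no block with rescaling 1 and the compared groups only 0 (574 at an unadjusted p under 0.05). Leaving out 1 library gave 3 (Mut1 library 1) to 150 (Mut2 library 1), and equal protein-coding totals 35 higher and 10 lower. The cause of these shifts was not tested. Fits that leave libraries out also rest on a smaller number of them, and its part was not separated from that of the values removed. Among the named genes, 55 lost their call without the block, and 12 to 21 did when 1 library was left out. No named gene changed direction past the threshold under any alternative run. With 2 libraries per group and no depth, counting error cannot be separated from other spread.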
